A study of Mus musculus with 4 samples.

Results

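Type I interferon-stimulated genes were followed through 4 myeloid populations from mouse tumours of EO771, an established line of mammary carcinoma cells. The set was a list of 41 gene symbols, and all 41 were among the 13976 genes of the deposited expression table, so no member was lost to the authors' filter on genes. All 41 are annotated as protein coding. Each population had 1 library of total RNA: CD103+ conventional dendritic cells of type 1 (cDC1), CD11b+ conventional dendritic cells of type 2 (cDC2), CD103intCD11b+ dendritic cells (CD103int DC here) and macrophages. The study's title ties the CD103int DC to tumours treated with a heterodimeric interleukin-15 (hetIL-15) given locally. The labels name no mouse strain, age, genotype, sorting gate or number of animals, and they do not say whether these tumours were treated.

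Type I interferons are secreted when cells sense foreign or misplaced nucleic acid. They bind a receptor of the chains Ifnar1 and Ifnar2, whose kinases Jak1 and Tyk2 switch on the signal inside the cell. A complex that holds Stat2 and Irf9 then binds the interferon-stimulated response element in front of its target genes. The targets include RNA sensors, enzymes that degrade or edit RNA, blocks to virus entry and release, and feedback genes that limit the signal. In tumours, dendritic cells and macrophages are known as producers and as responders.

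The element that many of these genes share can be read in their promoters. Of the 41 members, 30 had an entry in the RefSeq promoter table (assembly GRCm38.p6), with windows from 250 bases before to 50 bases after each annotated start site. The core of the element was searched as GAAANNGAAA on both strands (TTTCNNTTTC when read from the other strand), and overlapping matches were counted separately. It stood in at least 1 window of 14 of the 30 members (46.7%), against 3.99% of the 27025 genes in the table. Counted by window, the share was 40.5% of the 37 member windows against 3.44% of all 32851. Promoters are shown for 5 members that held the core before the start site, namely 3 IFIT genes from 1 cluster, Isg15 and Rsad2. Beside them stands Cmpk2, the neighbour of Rsad2 with the next largest difference between macrophages and cDC1, which had no match. Ifit2, the highest member in macrophages, had none in its windows either. The 250 bases before each start site are given on the strand of the gene, and capitals mark the matches to the core.
Ifit1 (chr19:34640639-34640888, plus strand): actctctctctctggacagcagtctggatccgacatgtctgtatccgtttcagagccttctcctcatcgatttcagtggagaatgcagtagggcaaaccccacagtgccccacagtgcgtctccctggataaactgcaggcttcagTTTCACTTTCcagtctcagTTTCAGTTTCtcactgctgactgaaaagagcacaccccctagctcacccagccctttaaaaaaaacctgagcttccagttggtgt
Ifit3 (chr19:34583279-34583528, plus strand): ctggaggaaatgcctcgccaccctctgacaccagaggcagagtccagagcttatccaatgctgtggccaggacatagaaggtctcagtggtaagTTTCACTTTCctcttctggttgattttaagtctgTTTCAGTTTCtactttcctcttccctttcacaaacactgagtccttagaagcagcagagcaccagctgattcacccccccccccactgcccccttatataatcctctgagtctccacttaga
Ifit3b (chr19:34607707-34607956, plus strand): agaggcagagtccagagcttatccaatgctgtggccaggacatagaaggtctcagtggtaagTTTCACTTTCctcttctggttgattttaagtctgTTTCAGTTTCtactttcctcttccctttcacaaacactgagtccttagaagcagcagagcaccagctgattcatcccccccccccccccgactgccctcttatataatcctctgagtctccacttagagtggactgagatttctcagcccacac
Isg15 (chr4:156200819-156201068, minus strand): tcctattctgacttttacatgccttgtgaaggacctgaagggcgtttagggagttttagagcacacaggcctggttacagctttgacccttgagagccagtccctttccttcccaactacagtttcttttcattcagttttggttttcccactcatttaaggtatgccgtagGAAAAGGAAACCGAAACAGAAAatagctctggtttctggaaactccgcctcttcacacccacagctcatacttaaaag
Rsad2 (chr12:26456453-26456702, minus strand): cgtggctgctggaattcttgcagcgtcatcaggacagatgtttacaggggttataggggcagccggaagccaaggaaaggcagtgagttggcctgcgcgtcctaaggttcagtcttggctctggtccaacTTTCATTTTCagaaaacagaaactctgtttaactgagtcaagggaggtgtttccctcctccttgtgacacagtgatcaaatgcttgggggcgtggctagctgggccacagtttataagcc
Cmpk2 (chr12:26468965-26469214, plus strand, no match): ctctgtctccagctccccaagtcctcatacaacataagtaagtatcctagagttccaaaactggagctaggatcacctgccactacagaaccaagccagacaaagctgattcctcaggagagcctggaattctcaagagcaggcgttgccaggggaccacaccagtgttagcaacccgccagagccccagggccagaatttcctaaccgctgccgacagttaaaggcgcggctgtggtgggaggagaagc

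Isg15 held 3 overlapping matches, with first bases at -78, -72 and -66 from the start site. The similar neighbours Ifit3 and Ifit3b carried the same pair of matches as Ifit1 (at -104 and -85), at -156 and -122 in the first and at -188 and -154 in the second. The 23 matches of the 14 members lay between -188 and 33, with 13 on the strand of the gene and 10 on the other. In 10 genes at least 1 match lay before the start site, and in 4 (Ddx58, Eif2ak2, Ifih1 and Ifitm3) all lay after it. A second motif, the gamma-activated site TTCNNNGAA, which reads the same on both strands, was found in 8 of the 30 members (26.7%) and in 9.55% of all genes. A match is a run of letters in these windows and was not tested as a binding site. The plot of match positions shows the 14 members.

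**Figure D1:**
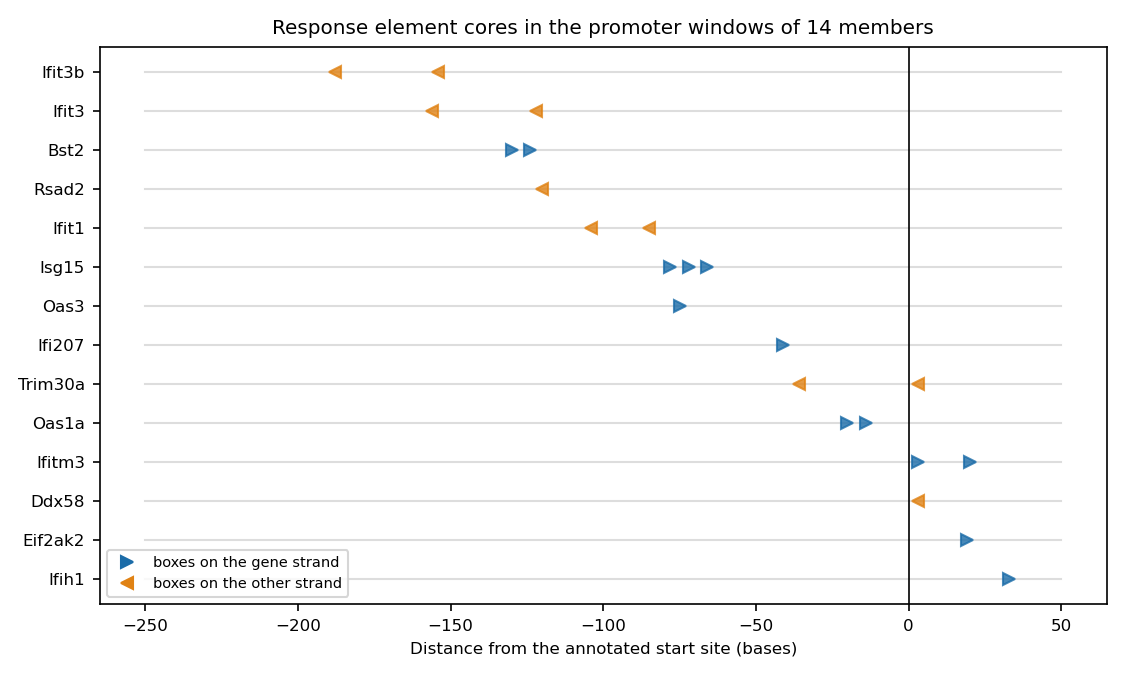
Distance in bases of each match to the response element core from the annotated start site (0), for the 14 members with a match. Triangles give the first base of a match and point right where the GAAA boxes lie on the strand of the gene, and the grey lines are the windows searched. The matches of 10 members include one before the start site.

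The deposited values are counts per 1000000 reads (CPM) as scaled by the authors, and wherever 4 values follow each other, cDC1 comes first, then cDC2, CD103int DC and last the macrophages. The value of 1 read, taken from the steps between low values, gave depths of 44425908, 44940500, 55960049 and 63817502 estimated reads. The lowest value of any member, Oas2 in cDC1 at 19.9 CPM, stood on 974 estimated reads, so depth set no limit on any member. Ranges in brackets are 95% intervals from counting error alone. They do not cover the variation between animals or sorts, and no difference could be set against replicate error. Markers set cDC1 apart (8 of 9 cDC1 markers were highest there), while macrophage markers summed to 988, 5000, 3470 and 4839 CPM and so did not separate the libraries labelled cDC2 and macrophage. Of 7 cDC2 markers, 4 were highest in cDC1, 2 in CD103int DC, 1 in macrophages and 0 in cDC2. Markers of conventional dendritic cells in general (6 genes) summed to 1970, 1618, 1506 and 717 CPM. The names of the libraries are thus those of the labels. The macrophage column carries another name prefix than the 3 dendritic cell columns; if it marks a batch, batch and population cannot be told apart.

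The members were all highest in the macrophage library. The 41 genes had their highest level there, against 38.3% of the 8724 genes that reached 10 CPM in 1 or more of the libraries. Their summed level was 4549, 6412, 4806 and 17254 CPM, or 0.502%, 0.662%, 0.493% and 1.48% of the column totals. Members at least 2-fold higher in macrophages, by the difference of log2(CPM + 1) and with at least 10 CPM in the higher library, numbered 34 of 41 over cDC1, 30 of 41 over cDC2 and 40 of 41 over CD103int DC. The same rule held for 15.8%, 6.01% and 8.31% of all genes in these pairs. No member was at least 2-fold lower in macrophages, against 9.21%, 1.78% and 4.35% of all genes. The median difference of the members was 1.90, 1.38 and 1.81 on that log2 scale, beside 0.09, 0.09 and 0.07 over all genes. In bulk libraries, more responding cells and more RNA per cell cannot be told apart.

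The macrophage column summed to 1169350 CPM and the others to between 905670 and 974649, so scaling bears on these counts. With all columns rescaled to equal totals, the median of all genes moved by -0.38, -0.28 and -0.27 in the 3 comparisons with macrophages. The members at least 2-fold higher then numbered 29, 23 and 33, and all 41 were still highest in macrophages. The all-gene shares under that scaling were 10.4%, 2.84% and 4.89% higher and 17.3%, 4.35% and 7.88% lower. The gene models Gm26917 and Gm42418, in which ribosomal RNA reads collect, held 12.5%, 5.94%, 7.08% and 11.3% of the column totals, and their part in the scaling was not tested.

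**Figure D2:**
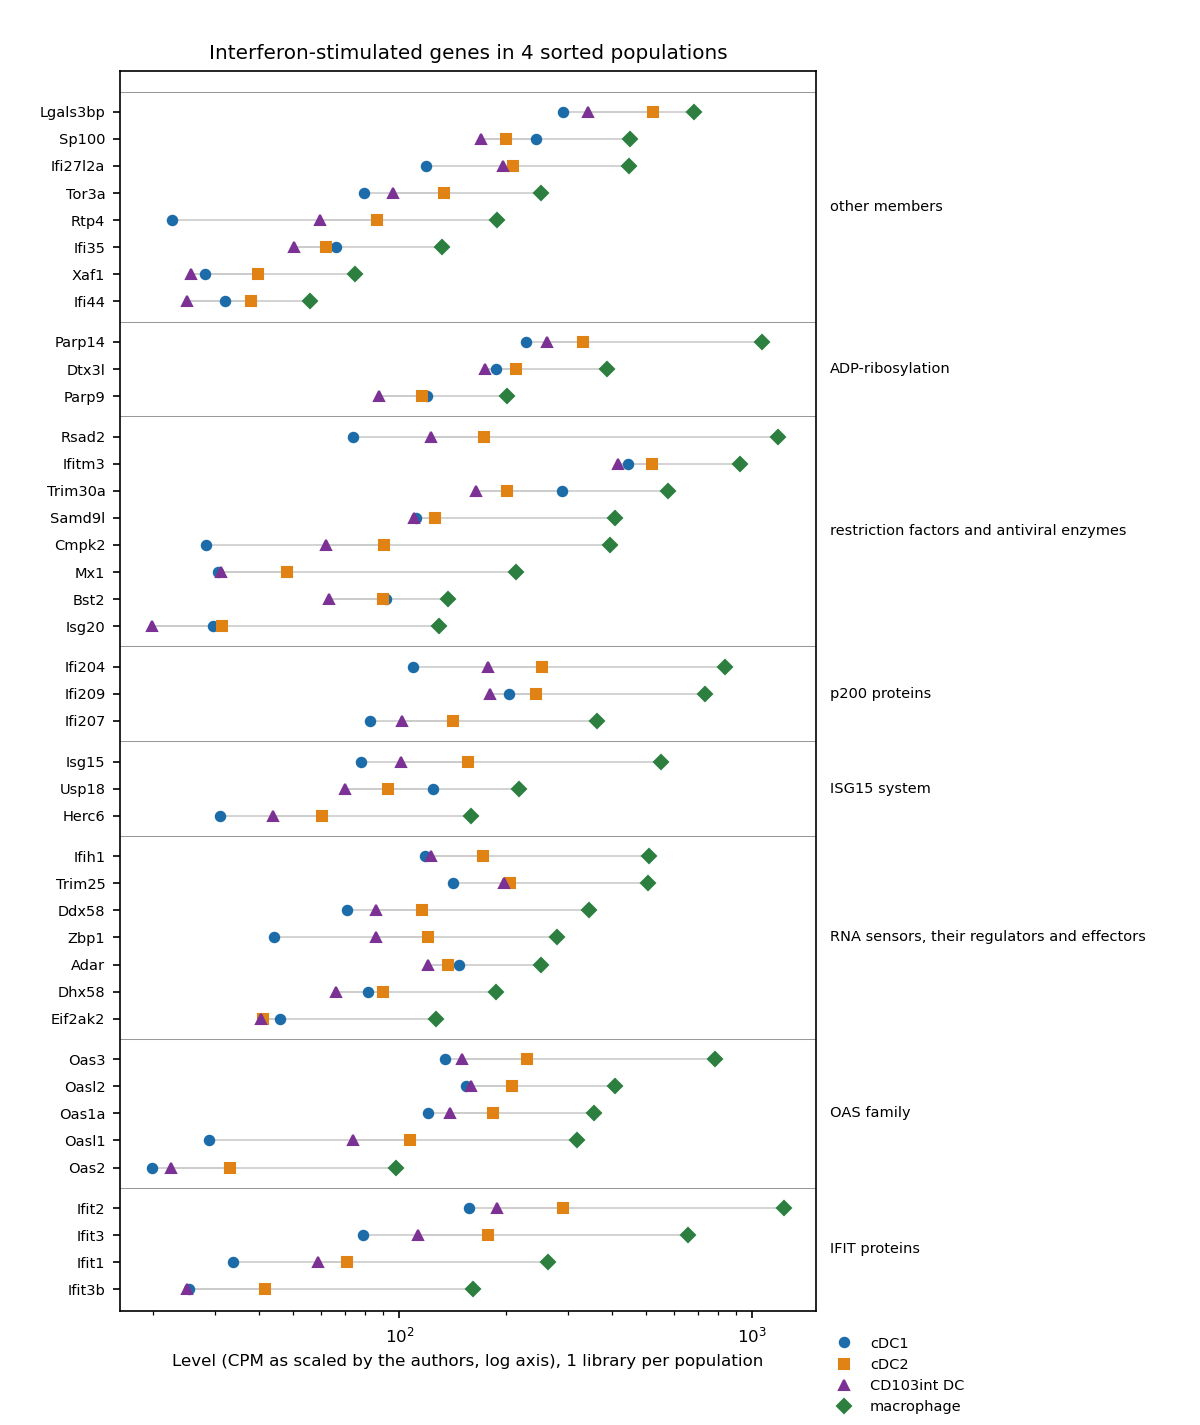
Level of each of the 41 members in the 4 libraries, in CPM on a log axis, grouped by role. Each symbol is 1 library and the grey line spans the 4 values of a gene; the macrophage symbol is at the right end of every line.

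The largest differences belonged to antiviral enzymes. Rsad2, which makes a nucleotide that stops viral RNA synthesis, stood at 73.9 CPM in cDC1, 173.9 in cDC2, 123 in CD103int DC and 1184 in macrophages. Its level in macrophages was 16-fold (15.5 to 16.6) that of cDC1, 6.81-fold (6.65 to 6.97) that of cDC2 and 9.61-fold (9.37 to 9.85) that of CD103int DC. Cmpk2, a nucleotide kinase, is its neighbour on chromosome 12, where the pair lies between 26442746 and 26479837 (GRCm38) on opposite strands with 12.8 kb between them. Cmpk2 followed the same order, at 28.4, 90.2, 62.0 and 396 CPM, and was 14-fold (13.2 to 14.8) higher in macrophages than in cDC1. Both genes were thus lowest in cDC1 and intermediate in the CD11b+ dendritic cells.

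Restriction factors, which block virus entry, copying or release, spanned a wide range of differences. Mx1, a GTPase that traps viral components, stood at 30.6, 47.9, 31.2 and 214 CPM, and Isg20, an RNA exonuclease, at 29.7, 31.5, 19.9 and 129 CPM. For Isg20 the cDC1 and cDC2 levels were close (1.06-fold, 0.983 to 1.14) and the macrophage level stood alone, 4.11-fold (3.89 to 4.35) above cDC2. Samd9l, a restriction factor of the cytoplasm, was at 111, 126, 109.9 and 409 CPM, with its 3 dendritic cell levels close to each other. Bst2, which tethers budding virus and is also a marker of plasmacytoid dendritic cells, had the smallest difference between macrophages and cDC1 of all members. It stood at 91.6, 90.0, 63.3 and 138 CPM, 1.5-fold (1.45 to 1.56) higher in macrophages than in cDC1. Ifitm3, which hinders fusion of viral and host membranes, was at 445, 520, 415 and 925 CPM and had the highest level of all members per length in each library, 612 to 1364 CPM per kilobase of exon.

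The IFIT genes, whose proteins bind foreign RNA, were among the most graded groups. Ifit2, Ifit3, Ifit3b and Ifit1 lie in this order on the plus strand of chromosome 19, between 34550694 and 34650009. Ifit2 stood at 158, 289.9, 189 and 1233 CPM, the highest level of any member in the macrophage library. Ifit3 was at 79.0, 178, 113 and 657 CPM and Ifit1 at 33.7, 71.0, 58.9 and 263 CPM. All 4 were at least 2-fold higher in macrophages than in each dendritic cell library, and the median log2 difference of the group over cDC1 was 2.94. Ifit3b stood at 25.3, 41.6, 24.9 and 161 CPM. Of the 50-base windows in the transcripts of Ifit3, 51.2% also stand in Ifit3b, so the authors' read assignment could move reads between them. The sum of both was 104, 219.9, 138 and 819 CPM, in the same order of libraries as Ifit3.

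The OAS genes, whose enzymes make oligoadenylates that switch on an RNA-degrading nuclease, were all at least 2-fold higher in macrophages than in cDC1 and in CD103int DC, and 3 of 5 than in cDC2. Oas3 stood at 135, 230.3, 150.6 and 782 CPM and its neighbour Oas2 on chromosome 5 at 19.9, 33.2, 22.5 and 97.7 CPM. Oasl1, an OAS-like protein known to curb Irf7, had the largest difference between macrophages and cDC1 in the family, at 28.8, 107, 74.0 and 319 CPM (11.1-fold, 10.5 to 11.7). Its neighbour Oasl2 was at 154, 209, 159.5 and 408 CPM, only 2.64-fold (2.57 to 2.71) apart in the same comparison. Oas1a was at 121, 185, 139 and 355 CPM, but 57.6% of its windows also stand in Oas1g. The sum of Oas1a and Oas1g was 142, 235, 171 and 457 CPM.

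Sensors of foreign nucleic acid were also highest in macrophages, but their order among the dendritic cells varied. The RNA helicase sensor Ifih1 stood at 118, 172, 123 and 511 CPM and the related Ddx58 (RIG-I) at 71.3, 116, 85.9 and 344 CPM. Their regulator Dhx58 differed less, at 81.3, 89.6, 66.0 and 188 CPM, and Trim25, a ubiquitin ligase that aids RIG-I, was at 142, 206, 198 and 505 CPM. Zbp1, a sensor of Z-form nucleic acid that can start cell death, was at 44.1, 120.3, 85.9 and 279 CPM. The kinase Eif2ak2 (PKR), which halts translation, was nearly level among the dendritic cells, at 46.0, 41.1, 40.5 and 127 CPM. Adar, which edits RNA duplexes, was at 147, 137, 121 and 252 CPM, only 1.71-fold (1.66 to 1.76) higher in macrophages than in cDC1. The 3 p200 members, whose proteins bind DNA, lie on chromosome 1. Ifi204 had the widest range of them, at 109, 254, 178 and 839 CPM, followed by Ifi207 at 82.6, 142, 102 and 363 CPM and Ifi209 at 204, 244, 180.1 and 732 CPM. Ifi209 shares 33.7% and Ifi204 20.02% of its windows with other genes, mostly of the same family.

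In the ISG15 system, which attaches a ubiquitin-like protein to targets, the modifier and its remover were ordered differently. Isg15, the modifier, stood at 77.8, 156, 101 and 551 CPM, and Herc6, the ligase that attaches it in mice, at 31.1, 60.5, 44.0 and 159.5 CPM. Both were lowest in cDC1. Usp18, which removes Isg15 and blocks the interferon receptor, was at 124, 93.1, 70.0 and 218 CPM. It was thus higher in cDC1 than in both other dendritic cell libraries, and the level in CD103int DC was 0.563-fold (0.541 to 0.586) that of cDC1, the lowest ratio of any member in that pair. The ADP-ribosylation genes had small differences except for Parp14. Parp14 stood at 228, 331, 262 and 1065 CPM, while Parp9 (120, 116, 87.4 and 202 CPM) and its partner Dtx3l (188, 215, 175 and 387 CPM) were 2.31-fold (2.23 to 2.39) and 2.21-fold (2.16 to 2.27) higher in macrophages than in CD103int DC. Parp9 and Dtx3l lie head to head on chromosome 16 and overlap at their starts on opposite strands, so reads of the overlap may have been assigned to either.

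Of the 8 remaining members, Rtp4, a chaperone of membrane receptors, differed most, at 22.7, 86.5, 59.7 and 189 CPM (8.30-fold, 7.80 to 8.84, in macrophages over cDC1). Tor3a was at 79.2, 134, 95.7 and 251 CPM, Xaf1, which promotes cell death, at 28.1, 39.7, 25.7 and 74.8 CPM, and Ifi27l2a at 119, 210.3, 196 and 447 CPM. Ifi44 was the lowest member in macrophages, at 32.0, 38.1, 24.9 and 55.9 CPM. Lgals3bp, a secreted glycoprotein, was at 290.0, 522, 342 and 683 CPM. It had the smallest difference of any member between macrophages and cDC2 (1.31-fold, 1.29 to 1.33) and was the 1 member under the 2-fold line against CD103int DC (1.995-fold, 1.96 to 2.03, or 0.99 on the log2 scale). The nuclear body gene Sp100 was at 244, 201, 171 and 450.1 CPM and Ifi35 at 65.9, 61.9, 50.4 and 132 CPM.

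Among the dendritic cells, cDC2 stood above CD103int DC for every member, by less than 2-fold each. All 41 were higher in cDC2, against 47.0% of the 8119 genes in that pair, and the median difference was 0.47 on the log2 scale beside -0.02 over all genes. No member was at least 2-fold higher or lower, against 0.665% and 1.56% of all genes. Ratios ran from 1.015-fold for Eif2ak2 (0.955 to 1.08) to 1.67-fold for Ifit3b (1.56 to 1.79), and for the 40 members other than Eif2ak2 the counting interval lay above 1. At these depths small ratios clear counting error. The share of all genes with such an interval was not counted, so this number cannot be set against them. At a line of 1.5-fold, 10 of 41 members passed, against 2.99% of all genes: Ifit2, Ifit3, Ifit3b, Isg15, Isg20, Mx1, Oas3, Xaf1, Ifi44 and Lgals3bp. The least different after Eif2ak2 were Trim25 (1.04-fold, 1.01 to 1.07) and Ifi27l2a (1.07-fold, 1.04 to 1.10). Rescaling to equal totals gave a median of 0.48.

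**Figure D3:**
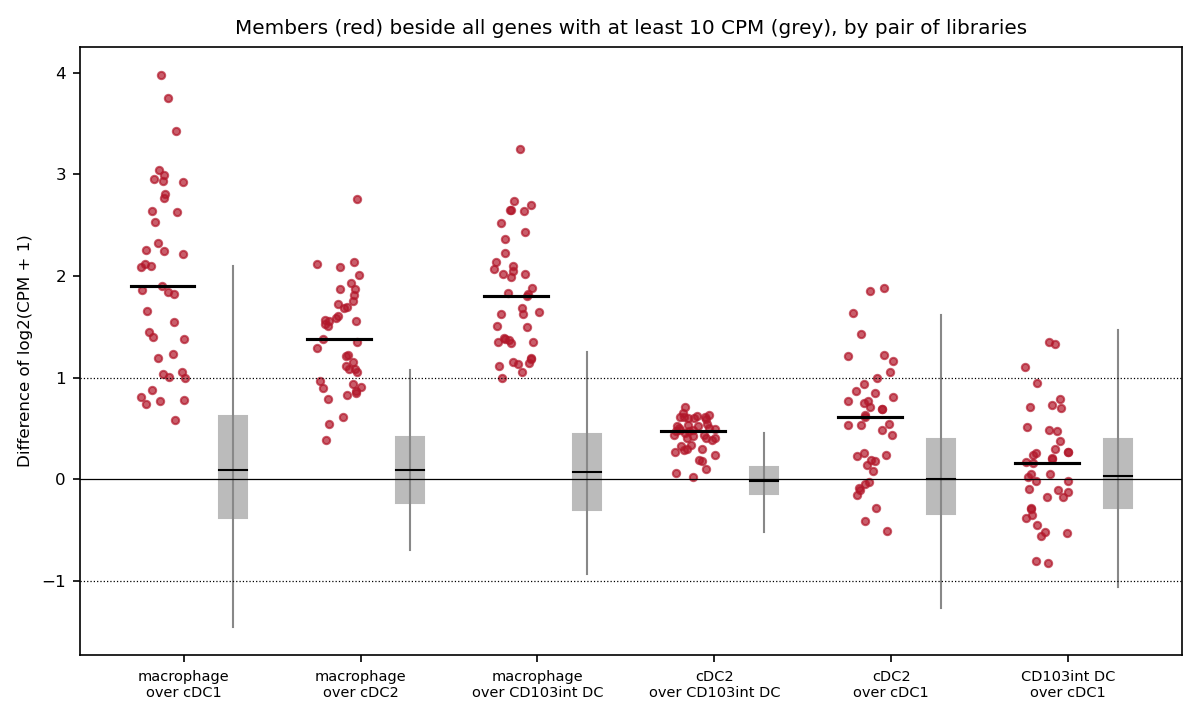
Difference of log2(CPM + 1) for the 6 pairs of libraries. Red points are the 41 members with their median as a bar; the grey boxes are the middle 50% of all genes with at least 10 CPM in either library, with their median and the range from the 5th to the 95th percentile, and dotted lines mark 2-fold. All members lie above 0 in the first 4 pairs, and on both sides of it in the pairs of cDC2 and CD103int DC with cDC1.

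Against cDC1 the members were split. In cDC2, 33 of 41 were higher and 8 lower than in cDC1, against 50.6% of all genes higher, and 8 were at least 2-fold higher (all genes 9.56%) and 0 lower (7.27%). The 8 were Cmpk2, Rsad2, Zbp1, Rtp4, Ifit1, Oasl1, Ifi204 and Ifit3. In CD103int DC, 24 (58.5%) were higher and 17 lower than in cDC1, near the 52.8% of all genes that were higher, and 3 (Cmpk2, Rtp4 and Oasl1) were at least 2-fold higher (all genes 9.16%) and 0 lower (5.46%). The share of members past 2-fold, 7.32%, was near that of all genes. The median was 0.61 for cDC2 and 0.16 for CD103int DC over cDC1, beside 0.01 and 0.03 over all genes. Both pairs share the cDC1 library and are not independent of each other. Rescaled to equal totals, 32 members were higher in cDC2 and 21 in CD103int DC than in cDC1, with medians of 0.51 and 0.0553. The medians of all genes moved as well, to -0.09 and -0.08. Above these lay 33 and 23 members, the same numbers as above the all-gene medians without rescaling. Without 7 members of families that hold near-identical copies, the median for CD103int DC over cDC1 was 0.0513. These 7 include Ifi27l2a and Ifi207, which share only 0.48% and 7.29% of their 50-base windows with other genes.

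Thus 24 members were lowest in cDC1 (58.5%, against 38.7% of all genes), 17 in CD103int DC (41.5%, against 15.9%) and none in cDC2 (17.3% of all genes). With columns rescaled to equal totals, 21 were lowest in cDC1 and 20 in CD103int DC. The order cDC1, CD103int DC, cDC2, macrophage from low to high held for 24 members (58.5%, against 15.2% of all genes). Another 9 had CD103int DC below cDC1 and cDC2 above it (3.07% of all genes), and 8 had CD103int DC lowest and cDC1 above cDC2 (5.62%). These 8 were Adar, Bst2, Eif2ak2, Ifi35, Parp9, Sp100, Trim30a and Usp18. Trim30a, a brake on inflammatory signalling, had the lowest ratio of cDC2 to cDC1, at 288, 202, 165 and 579 CPM (0.701-fold, 0.683 to 0.719). For Bst2 (0.983-fold, 0.942 to 1.03) and Parp9 (0.966-fold, 0.931 to 1.003) the counting interval of cDC2 over cDC1 held 1. With the macrophage library left aside, 33 members were highest in cDC2 and 8 in cDC1, against 30.0% and 41.8% of the 8566 genes. CD103int DC was the highest dendritic cell library for no member, against 28.2% of these genes.

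The genes that carry the interferon signal differed less than its targets. Of 6 receptor and signalling genes, 5 were highest in macrophages, against 38.3% of all genes. Stat2 stood at 228, 209, 171 and 401 CPM and Irf9 at 129, 98.5, 85.5 and 139 CPM. The receptor chain Ifnar1 was at 108, 163, 142 and 262 CPM and Ifnar2 at 63.1, 102, 71.8 and 119 CPM. Tyk2 was the exception, at 163, 89.7, 132 and 152 CPM. In macrophages, 1 of 6 was at least 2-fold higher than in cDC1, 0 of 6 than in cDC2 and 1 of 6 than in CD103int DC. The same rule held for 15.8%, 6.01% and 8.31% of all genes, so these few counts do not set the list apart. The list's medians were 0.81, 0.72 and 0.72.

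Among 16 measured sensors and adaptors that start the response, 10 were highest in macrophages, 4 in cDC1 and 2 in cDC2. Of all genes, 38.3%, 31.1% and 12.3% were. Irf7, the factor that amplifies interferon production and is itself interferon-induced, stood at 473, 636, 366 and 1648 CPM, the same order of macrophage, cDC2 and CD103int DC as the members. The endosomal RNA receptor gene Tlr7 was at 18.9, 71.8, 37.4 and 197 CPM and Tlr9, which binds DNA, at 237, 221, 144 and 441 CPM. Tlr3, known as a cDC1 gene, ran the other way, at 108, 15.0, 16.7 and 29.4 CPM, as did Irf8 at 704, 226, 193 and 268 CPM. The DNA sensor Cgas was at 19.6, 18.3, 17.9 and 35.8 CPM and its partner Tmem173 (STING) at 109, 86.5, 94.7 and 97.6 CPM. The kinase gene Ikbke was nearly missing from cDC1, at 2.26, 34.0, 20.7 and 55.4 CPM, whereas Tbk1 was at 28.7, 48.5, 42.7 and 83.4 CPM. Over cDC1, 7 of 16 were at least 2-fold higher in macrophages and 2 lower (median 0.93), against 15.8% and 9.21% of all genes. Over cDC2 and CD103int DC the differences were smaller, with 2 and 4 of 16 at least 2-fold higher (medians 0.51 and 0.63). Of all genes, 6.01% and 8.31% were. None was at least 2-fold lower in these pairs, against 1.78% and 4.35%.

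All 10 negative regulators were highest in macrophages (38.3% of all genes were), by less than the targets. The feedback inhibitor Socs1 was at 9.01, 27.6, 23.9 and 50.8 CPM, and Trex1, which removes stray DNA, at 105, 85.8, 62.8 and 193 CPM. Over cDC1, cDC2 and CD103int DC, 4, 1 and 3 of the 10 were at least 2-fold higher in macrophages (medians 0.80, 0.50 and 0.61). Of all genes, 15.8%, 6.01% and 8.31% were. Of the 12 interferon ligand genes on the list, 1 was among the genes of the table. That gene, Ifng, whose product is the type II interferon of T cells and NK cells, stood at 1.67, 2.76, 0.0523 and 0.183 CPM. It was thus low everywhere and highest in cDC2.

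**Figure D4:**
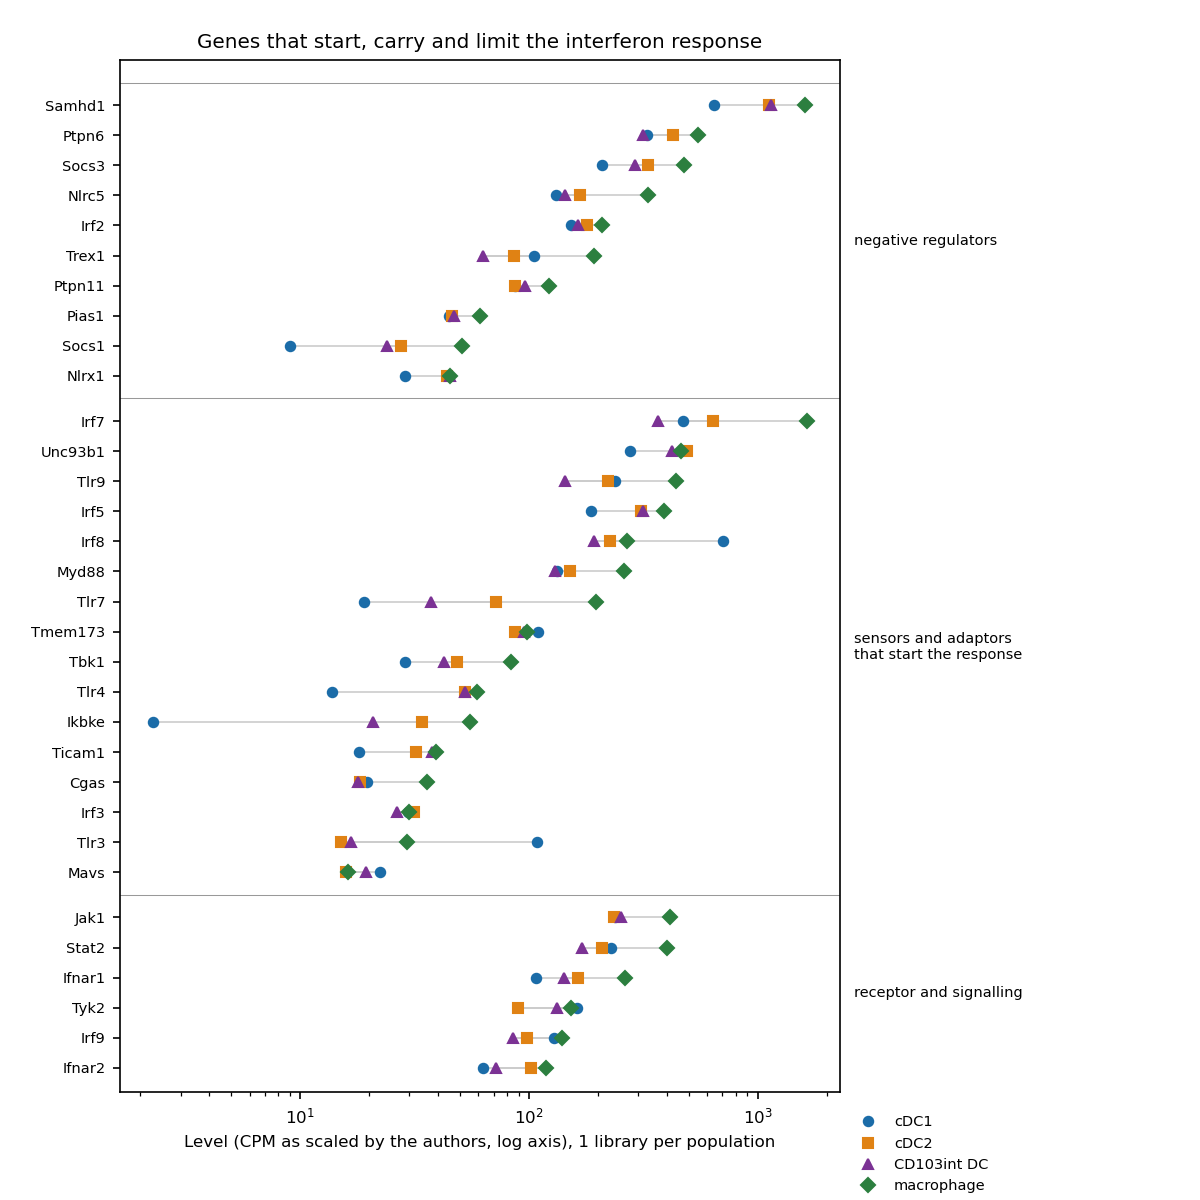
Level in CPM, on a log axis, of the measured genes that sense nucleic acid and start the response, carry the receptor's signal or limit it, in the 4 libraries (1 symbol per library). Most genes are highest in macrophages; Tlr3 and Irf8 are highest in cDC1.

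Genes tied to the interferon gamma response were checked beside the members, since the responses to both interferons overlap. Besides response genes, the list holds the receptor chain genes Ifngr1 and Ifngr2. Of 16 measured, 12 were highest in macrophages, against 38.3% of all genes. The chemokine gene Cxcl10, which answers both interferons, was at 36.8, 155, 112 and 605 CPM. Cxcl9, the more specific target of interferon gamma, was highest in cDC2, at 77.2, 343, 195 and 276 CPM. The MHC class II activator gene Ciita was lowest in macrophages, at 491, 395, 437 and 309 CPM. Over cDC1, cDC2 and CD103int DC, 10, 5 and 8 of 16 were at least 2-fold higher in macrophages (medians 1.58, 0.64 and 0.98), against 15.8%, 6.01% and 8.31% of all genes. In cDC2, 15 of 16 were higher than in CD103int DC (median 0.33), against 47.0% of all genes.

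Markers of other cells differed between the libraries too, in several orders. Of 9 monocyte markers, 7 were highest in macrophages, and the list summed to 1497, 2739, 4829 and 7511 CPM with no marker at 0 in any library. Ly6c2, a monocyte marker that is itself interferon-induced, stood at 233, 236, 132 and 1371 CPM. T cell markers (9 measured of 10) summed to 81.5, 42.0, 15.0 and 21.7 CPM and NK cell markers (6 of 7) to 152, 103, 84.8 and 88.7 CPM. Both sums were thus lower in CD103int DC than in cDC2, as were the members, but highest in cDC1. By marker, 4 of the T cell genes were highest in cDC1, 4 in cDC2 and 1 in CD103int DC. Of the NK cell genes, 3 were highest in cDC1, 2 in cDC2 and 1 in macrophages. The monocyte sum was higher in CD103int DC than in cDC2, unlike the members. By marker, however, 5 of the 9 monocyte genes were higher in cDC2 and 4 lower (median log2 difference 0.09). Of 14 macrophage markers, 13 were higher in cDC2 than in CD103int DC and 1 lower (median 0.75), the direction of the members. Klrb1c and the endothelium gene Egfl7 were at 0 in cDC1, the only zeros on the marker lists. Plasmacytoid dendritic cell markers (6 measured of 9) were all highest in cDC1 and summed to 725, 106, 87.3 and 164 CPM, with none at 0. Neutrophil markers (3 measured of 9) summed to 12.3, 70.3, 38.6 and 169 CPM, with none at 0. This sum followed the most common order of the members. Markers of tumour epithelium (3 measured of 7) summed to 425, 120, 200 and 89.9 CPM. Those of fibroblasts (4 of 6) summed to 10.1, 43.7, 10.7 and 20.1 CPM, and those of endothelium (4 of 6) to 472, 167, 101 and 300 CPM. The part of such cells in the levels of the members was not tested.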

How the data were processed

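Bulk RNA was measured in 4 sorted populations with 1 library each. Per the labels' protocols, total RNA was DNase-treated and made into directional libraries. The authors deposited 1 table of an expression signal, which its name gives as filtered CPM with TMM library scaling (a trimmed mean of log ratios); no source states the filter. The aligner, counter, strand setting and build were not given in the sources used here. Each of the 13976 identifier and symbol pairs matched GENCODE M21 (GRCm38), which gave positions and exon lengths.

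Members were matched by symbol. Members, lists and comparisons were chosen with earlier results of these data known. All 41 members were to be named, and other genes only from the interferon and marker lists, of which 1 signalling gene is not reported here. The value of 1 read was 0.0204, 0.0216, 0.0174 and 0.0183 CPM, and 70.6% to 79.0% of values above 0 were whole reads at a tolerance of 0.001. These are estimated counts, so no count test was run. With 1 library per population no p-value or SD is given. Differences were taken on log2(CPM + 1), which understates low genes, and counted from 2-fold with at least 10 CPM in the higher library. Medians used genes with at least 1 CPM in either library, and those of all genes the same genes as the counts. Intervals (95%) are Poisson for levels and exact conditional binomial for ratios. They treat estimated reads as counts and cover counting error at most. The sources used here do not say whether reads were collapsed to molecules. Code ran in Python 3.11.15 with pandas 2.3.3 and SciPy 1.17.1, and the call rule and intervals were checked on simulated data. Alternatives were other scalings, pseudocounts, minimums and folds, and leaving out members of families that hold near-identical copies.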

Additional observations from a re-analysis of the deposited data

How the results depend on the processing

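Each population had 1 library, so no alternative could leave out a replicate. All 41 members stayed highest in macrophages under both other scalings, equal column totals and median ratios. Of 167 values under the alternatives, 147 stayed close to those reported and 20 moved, and no median changed sign. Counts were called close within 1.5 times, and medians within the counting error of the 1 member nearest the median. The lowest member value was 19.9 CPM, so the lower minimums could not change any value. Many counts were 0 under every setting as well, so the 147 overstates how much was put to the test. With columns rescaled to equal totals, the median log2 difference of the members was 1.53 for macrophages over cDC1, 1.12 over cDC2 and 1.54 over CD103int DC, and 0.51 and 0.0553 for cDC2 and CD103int DC over cDC1. The medians of all genes in the same pairs moved with them, to -0.29, -0.18, -0.20, -0.09 and -0.08. Without the 7 members of families that hold near-identical copies, the medians were 1.85 and 1.67 for macrophages over cDC1 and CD103int DC. They were 0.53 and 0.0513 for cDC2 and CD103int DC over cDC1. A pseudocount of 5 gave 1.75 for macrophages over CD103int DC. At a line of 4-fold, 20, 5 and 16 members were higher in macrophages than in cDC1, cDC2 and CD103int DC, and 0 were higher in cDC2 or in CD103int DC than in cDC1. At 1.5-fold, 10 were higher in cDC2 than in CD103int DC, 21 in cDC2 than in cDC1, and 8 higher and 2 lower in CD103int DC than in cDC1. For the lines of 4-fold and 1.5-fold, the share of all genes was counted only for cDC2 over CD103int DC at 1.5-fold (2.99%). The other counts at these lines cannot be set against all genes. Leaving out the macrophage library, an alternative chosen after the data were seen, put 33 members highest in cDC2. Depth limited no member, and the lack of replicate libraries limits every difference.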

Other observations

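Other interferon-stimulated genes, listed from general knowledge and not among the members, ran with them in most cases. This list, too, was chosen with earlier results of these data known. It holds genes that share sequence with members, such as Oas1g, Ifi211 and Mx2, and it holds the monocyte marker Ly6c2. It is thus no independent check of the members. Of 46 measured, 41 were highest in macrophages, against 38.3% of all genes. In macrophages, 29, 28 and 33 were at least 2-fold higher than in cDC1, cDC2 and CD103int DC (medians 1.56, 1.17 and 1.49). The shares of all genes at least 2-fold higher were 15.8%, 6.01% and 8.31%. Ifit1bl1, a relative of Ifit1, had a wider range than any member, at 9.26, 52.5, 42.7 and 261 CPM in cDC1, cDC2, CD103int DC and macrophages. Helz2, a transcriptional coactivator, stood at 216, 204, 152 and 834 CPM and Slfn5 at 331, 329.8, 291 and 1267 CPM. Mx2, the relative of Mx1, was lower throughout, at 7.93, 11.5, 6.38 and 40.9 CPM. The checkpoint ligand gene Cd274 (PD-L1) was at 65.8, 216, 138 and 419.8 CPM.

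The 5 that were not highest in macrophages were Ifitm1, Ifi30, Ifi208, Gm4951 and Ly6a. Ifitm1, of the same family as Ifitm3, was lowest in macrophages and highest in cDC1, at 94.7, 41.0, 36.9 and 16.5 CPM, while Ifitm2 was at 219, 189, 158 and 238 CPM. Ifi30, a thiol reductase of antigen processing, was at 677, 627, 647 and 329 CPM. Ly6a was at 409.7, 460.4, 302 and 370.0 CPM. Of 40 genes on this list with a RefSeq promoter entry, 24 (60.0%) held the response element core and 0 the gamma-activated site.

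Among the 30 members with a promoter entry, the 14 that held the core had a median log2 difference of 2.19 for macrophages over cDC1, from 0.58 (Bst2) to 3.98 (Rsad2). The 16 without it had a median of 1.61, from 0.77 to 3.76. The ranges overlap, and no test was made.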
